A study of Mus musculus with 8 samples.

Results

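The guanylate-binding proteins (GBPs) were examined in mouse splenic CD8+ T cells with and without DADA. The family was taken as the rows of the deposited expression table whose symbol is *Gbp2*, *Gbp3*, *Gbp4*, *Gbp5*, *Gbp6*, *Gbp7*, *Gbp8*, *Gbp9*, *Gbp10* or *Gbp11*, which gave 10 of the 22520 rows. DADA is diisopropylamine dichloroacetate, an inhibitor of pyruvate dehydrogenase kinase, the enzyme that holds back the entry of pyruvate into mitochondrial oxidation. CD8+ T cells were purified from mouse spleen by negative magnetic selection and kept under persistent stimulation with anti-CD3, anti-CD28 and IL-2, conditions that both groups shared. The Ctrl group received DMSO and the DADA group 40 µM DADA from day 3, and RNA of both was collected on day 6 for bulk RNA-seq of 4 libraries each. The labels call them biological replicates without naming animals, carry "control" and "model" in their genotype field, and give neither the strain nor the age of the mice behind these libraries, so the p-values measure the spread between the libraries, which may be technical.

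GBPs are large GTPases of the dynamin superfamily that cells make in response to interferons. They assemble on the vacuoles of intracellular parasites and bacteria, and some are anchored to membranes by a prenyl group added at a C-terminal CaaX motif. Interferon-γ switches their genes on through gamma-activated sites (GAS) in their promoters, and interferon regulatory factors such as IRF1, and complexes that hold IRF9, bind interferon-stimulated response elements (ISRE). Activated CD8+ T cells are themselves a source of interferon-γ.

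Values are FPKM, fragment numbers corrected for the depth of the library and the length of the transcript, so levels of different genes are per length. The libraries held an estimated 13560000 to 16340000 mapped fragments in Ctrl and 14620000 to 18500000 in DADA. The CD8 T cell markers *Cd3d*, *Cd3e*, *Cd3g*, *Cd8a* and *Cd8b1* summed to 674 to 680 FPKM in Ctrl and to 776 to 805 FPKM in DADA. Of 6 myeloid markers 1, *Cd68*, reached 1 FPKM in any library, the list summed to 3.51 to 3.99 FPKM in Ctrl and 5.15 to 5.72 FPKM in DADA, and *Csf1r* and *Adgre1* were listed at 0 in every library. Of 4 dendritic cell markers 1, *Zbtb46*, reached 1 FPKM, and that list summed to 3.69 to 4.61 FPKM in Ctrl and 1.89 to 2.48 FPKM in DADA. Of 4 B cell markers 1, *Cd79b*, reached 1 FPKM, and that list summed to 2.59 to 3.54 FPKM in Ctrl and 2.36 to 3.09 FPKM in DADA. CD4 T cell markers summed to at most 0.718 FPKM and erythroid markers to at most 0.426 FPKM with *Hbb-bs* at 0. The 2 NK cell markers summed to 0 to 0.0959 FPKM in Ctrl and 0.144 to 0.336 FPKM in DADA, and neither reached 1 FPKM. The part of other cells in the results below was not tested. In bulk RNA, fewer expressing cells and less RNA per cell cannot be told apart.

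All 10 GBP rows passed the filter of 1 FPKM in at least 4 libraries, and all 10 differed between DADA and Ctrl. With DADA 8 were higher, *Gbp2*, *Gbp3*, *Gbp4*, *Gbp5*, *Gbp6*, *Gbp7*, *Gbp9* and *Gbp10*, and 2 were lower, *Gbp8* and *Gbp11* (limma, adjusted p under 0.05). Among all 10666 genes tested, 66.2% were called, 30.9% as higher and 35.3% as lower, so a call as such was common in this comparison. In each of the 10 genes the DADA libraries lay outside the range of the Ctrl libraries, as did 60.6% of all genes tested, 28.4% with DADA higher and 32.2% with DADA lower. Each of the 10 gave a p of 0.0286 in the two-sided exact permutation test, the smallest that the 70 assignments of 4 against 4 libraries allow. The median log2 fold change of the 10 was 0.79, beside -0.02 for all genes tested. Every log2 fold change was taken between values of log2(FPKM + 1), which understates the change of low genes.

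**Figure D1:**
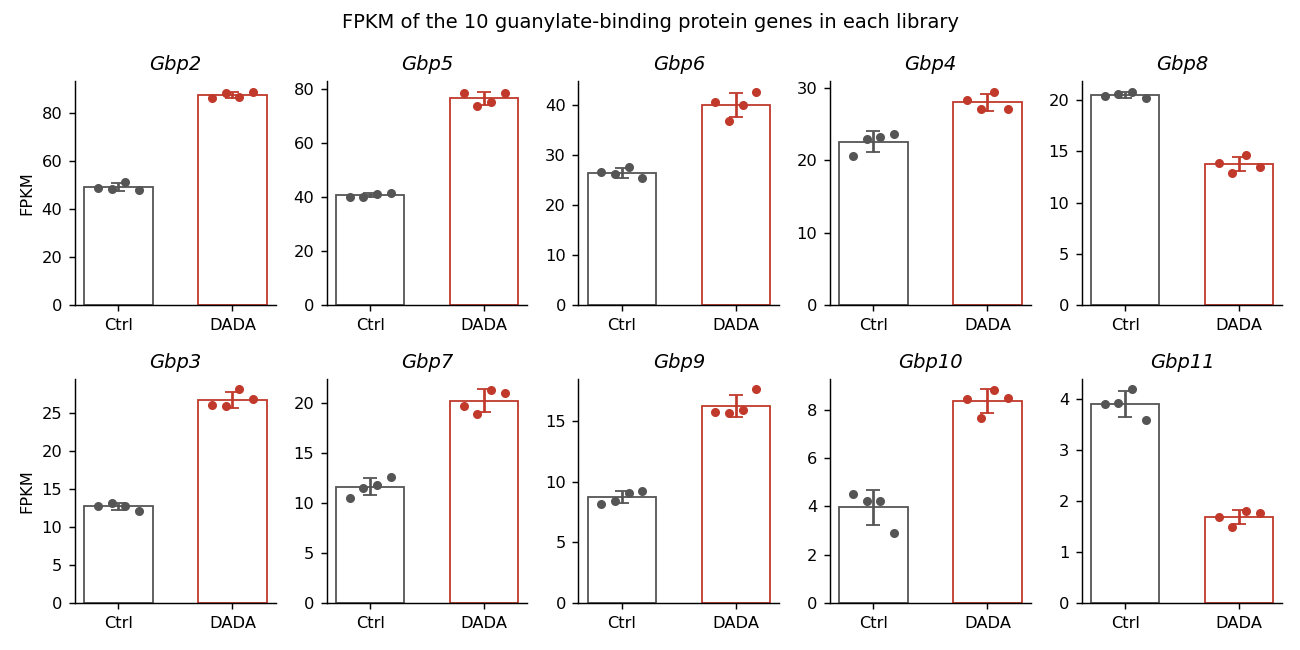
FPKM of the 10 GBP genes, with 1 point for each of the 4 Ctrl and 4 DADA libraries and a bar at each group's mean. In no gene do the points of the groups overlap, and *Gbp8* and *Gbp11* lie lower with DADA, while the other 8 lie higher.

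In the reference annotation (GENCODE M21, build GRCm38) the family falls into a pair of clusters. *Gbp5*, *Gbp7*, *Gbp3* and *Gbp2* lie in this order, all on the plus strand, within 144.0 kb of chromosome 3 (chr3:142493978-142638008). The other 6 lie on the minus strand within 332.3 kb of chromosome 5 (chr5:105014150-105346472). By the lower coordinate of each gene their order is *Gbp8*, *Gbp9*, *Gbp4*, *Gbp10*, *Gbp6* and *Gbp11*. The build differs from the GRCm39 listed in the submitters' processing notes, and the deposited table holds no coordinates.

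The chromosome 3 genes rose together. The 4 genes had log2 fold changes from 0.75 to 1.01 with a median of 0.86, and their summed level went from 112 to 117 FPKM in the Ctrl libraries to 207 to 215 FPKM in the DADA libraries, a ratio of means of 1.85. *Gbp2* (ENSMUSG00000028270), a prenylated GBP that is recruited to parasite and bacterial vacuoles, was the most abundant member in both groups. It stood at 49.0, 48.6, 51.6 and 47.9 FPKM in Ctrl 1 to 4 and at 86.5, 88.3, 86.9 and 89.0 FPKM in DADA 1 to 4. The lowest DADA library was far above the highest Ctrl library, and the mean went from 49.3 ± 1.60 to 87.7 ± 1.19 FPKM (SD, n = 4), with a log2 fold change of 0.82 (SE 0.0268, limma adjusted p = 2.84e-09). *Gbp5* (ENSMUSG00000105504), known for its part in inflammasome activation in macrophages, stood at 39.9, 40.0, 41.2 and 41.3 FPKM in Ctrl and at 78.5, 73.6, 75.1 and 78.5 FPKM in DADA. The libraries of each group lay close together and far from the other group, and the mean of *Gbp5* went from 40.6 ± 0.732 to 76.4 ± 2.48 FPKM, with a log2 fold change of 0.90 (SE 0.0281, limma adjusted p = 2.18e-09).

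*Gbp3* (ENSMUSG00000028268) started lower and had the largest log2 fold change of the 10 members on this scale, although the ratio of means of *Gbp10*, a low gene, was as high (2.11). It stood at 12.8, 13.2, 12.8 and 12.1 FPKM in Ctrl and at 26.0, 25.9, 28.1 and 26.8 FPKM in DADA. Its mean rose by a ratio of 2.10, from 12.7 ± 0.454 to 26.7 ± 1.02 FPKM, with a log2 fold change of 1.01 (SE 0.0373, limma adjusted p = 7.41e-09) and a 95% interval of 0.93 to 1.10 that does not meet the intervals of *Gbp2* (0.76 to 0.88) and *Gbp7* (0.63 to 0.88) but overlaps those of *Gbp5* (0.83 to 0.96), *Gbp9* (0.71 to 0.94) and *Gbp10* (0.70 to 1.15). *Gbp7* (ENSMUSG00000040253), linked to assembly of the phagocyte oxidase and to autophagy, spanned 10.6 to 12.6 FPKM in Ctrl and 19.0 to 21.3 FPKM in DADA. Its groups were well apart, with means of 11.6 ± 0.861 and 20.3 ± 1.13 FPKM and a log2 fold change of 0.75 (SE 0.0558, limma adjusted p = 1.19e-06). Of the 150-base windows of the *Gbp7* transcripts, 8.77% also occur in the predicted gene *Gm43802*.

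The fifth gene of the chromosome 3 cluster, *Gbp2b*, the mouse counterpart of human GBP1, was listed at 0 in 6 of the 8 libraries and reached at most 0.0244 FPKM, although it lies between *Gbp3* and *Gbp2*, which both rose. The table holds no row named *Gbp1* and no other row whose symbol starts with *Gbp*.

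Because these neighbours moved together and *Gbp2b* was near 0, the 250 bases before their start sites were read for interferon response motifs. The sequences are those of RefSeq on GRCm38.p6, plus strand, 5′ to 3′, at chr3:142496684-142496933 (*Gbp5*), chr3:142530086-142530335 (*Gbp7*), chr3:142559794-142560043 (the first of 2 starts of *Gbp3*), chr3:142594597-142594846 (*Gbp2b*) and chr3:142620413-142620662 (*Gbp2*). Capitals mark matches to a GAS core, TTCNNNGAA, or to an ISRE core, GAAANNGAAA on either strand, which reads TTTCNNTTTC in these lines. The table of promoters has an entry for 4 of the 10 members and none for *Gbp4*, *Gbp6*, *Gbp8*, *Gbp9*, *Gbp10* and *Gbp11*.
Gbp5: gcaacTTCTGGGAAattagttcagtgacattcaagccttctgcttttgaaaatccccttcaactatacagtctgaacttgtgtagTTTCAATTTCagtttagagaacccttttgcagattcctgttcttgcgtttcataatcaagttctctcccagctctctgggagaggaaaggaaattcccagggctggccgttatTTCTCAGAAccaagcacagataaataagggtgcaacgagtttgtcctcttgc
Gbp7: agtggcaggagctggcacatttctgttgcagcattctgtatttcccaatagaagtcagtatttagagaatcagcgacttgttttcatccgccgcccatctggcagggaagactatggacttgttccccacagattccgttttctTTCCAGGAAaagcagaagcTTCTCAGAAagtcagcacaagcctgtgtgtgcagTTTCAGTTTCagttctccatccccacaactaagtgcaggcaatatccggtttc
Gbp3: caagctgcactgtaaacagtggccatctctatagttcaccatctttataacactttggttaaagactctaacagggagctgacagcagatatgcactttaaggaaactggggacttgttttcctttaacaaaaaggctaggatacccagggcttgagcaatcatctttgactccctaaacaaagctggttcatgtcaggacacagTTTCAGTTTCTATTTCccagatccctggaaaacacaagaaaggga
Gbp2b: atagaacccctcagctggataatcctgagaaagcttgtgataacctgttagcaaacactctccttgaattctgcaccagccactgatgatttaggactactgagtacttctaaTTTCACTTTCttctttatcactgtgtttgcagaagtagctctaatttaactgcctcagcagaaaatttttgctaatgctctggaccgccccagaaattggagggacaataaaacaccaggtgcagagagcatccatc
Gbp2: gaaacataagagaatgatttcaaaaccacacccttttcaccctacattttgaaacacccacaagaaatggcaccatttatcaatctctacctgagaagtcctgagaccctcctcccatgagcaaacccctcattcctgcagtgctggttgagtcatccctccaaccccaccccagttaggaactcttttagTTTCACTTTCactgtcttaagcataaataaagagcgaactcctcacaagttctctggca

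*Gbp5* held a GAS core at each end of its window, TTCTGGGAA at 245 to 237 and TTCTCAGAA at 52 to 44 bases before the RefSeq start, with an ISRE core between them. In GENCODE M21 the span of *Gbp5* begins farther upstream, at chr3:142493978, so this window lies within the annotated gene. *Gbp7* held the same 9 letters TTCTCAGAA at 87 to 79 bases before its start, beside TTCCAGGAA at 106 to 98 and an ISRE core at 53 to 44. *Gbp3* held a pair of overlapping ISRE cores, TTTCAGTTTC at 45 to 36 and TTTCTATTTC at 39 to 30 bases before its first start, and its second start had no match. *Gbp2* held 1 ISRE core at 59 to 50 bases before its start, and the same letters, TTTCACTTTC, occur in the window of *Gbp2b* at 137 to 128. Of the 5 windows of members, 4 held an ISRE core, 2 a GAS core and 2 both, and among all 32851 promoter windows of this length 2.98%, 7.02% and 0.332% did. A match is a description of the letters and does not show that a factor binds there.

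The chromosome 5 genes did not move as a group. *Gbp4*, *Gbp6*, *Gbp9* and *Gbp10* rose, *Gbp8* and *Gbp11* fell, and the summed level of the 6 genes went from 84.2 to 89.2 FPKM in Ctrl to 102 to 111 FPKM in DADA, a ratio of means of 1.25. *Gbp9* (ENSMUSG00000029298) spanned 8.15 to 9.26 FPKM in Ctrl and stood at 15.8, 15.7, 15.9 and 17.6 FPKM in DADA, with DADA 4 above the other libraries of its group. Its log2 fold change was 0.83 (SE 0.0512, limma adjusted p = 3.15e-07), within the range of the chromosome 3 genes. *Gbp4* (ENSMUSG00000079363) stood at 20.6, 23.0, 23.2 and 23.7 FPKM in Ctrl and at 28.3, 27.1, 29.5 and 27.1 FPKM in DADA. Its groups did not overlap, but its rise, 22.6 ± 1.40 to 28.0 ± 1.14 FPKM with a log2 fold change of 0.30 (SE 0.0468, 95% interval 0.19 to 0.40, limma adjusted p = 0.000279), was the smallest of the 8, and its interval met that of no other member.

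*Gbp6* and *Gbp10* lie next to each other on chromosome 5 and share much of their sequence, so that reads can be split between them. Of the 150-base windows of their annotated transcripts, 59.1% of those of *Gbp6* and 66.6% of those of *Gbp10* also occur in another gene, mostly in the predicted gene *Gm43302*, which spans both. *Gbp6* (ENSMUSG00000104713) spanned 25.4 to 27.7 FPKM in Ctrl and 36.9 to 42.7 FPKM in DADA, and its log2 fold change was 0.58 (SE 0.0449, limma adjusted p = 1.67e-06). *Gbp10* (ENSMUSG00000105096) stood at 4.51, 4.23, 4.22 and 2.89 FPKM in Ctrl and at 8.44, 7.64, 8.80 and 8.5 FPKM in DADA. Ctrl 4 was the low library of *Gbp10* and at the same time the high library of *Gm43302*, which stood at 6.39, 6.25, 6.68 and 9.10 FPKM in Ctrl and at 8.08, 10.5, 10.6 and 9.03 FPKM in DADA. The log2 fold change of *Gbp10* was 0.92 with the largest SE of the 10 members (0.102, limma adjusted p = 2.18e-05), and that of *Gm43302* was 0.39 (SE 0.115, limma adjusted p = 0.0132) with overlapping groups. Summed into 1 feature, an alternative chosen after the data were seen, *Gbp6*, *Gbp10* and *Gm43302* went from 37.6 ± 0.805 to 58.0 ± 2.39 FPKM, with a log2 fold change of 0.61 (SE 0.0326, limma adjusted p = 1.04e-07). The sum depends less on how reads were divided among the 3 genes, and the separate values of *Gbp6* and *Gbp10* are uncertain.

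*Gbp8* and *Gbp11*, whose annotated spans reach the opposite edges of the chromosome 5 cluster, went the other way. The span of *Gbp8* (chr5:105014150-105139540) holds that of *Gbp9* (chr5:105077630-105139539) and overlaps that of *Gbp4* (chr5:105115767-105139586). On the minus strand the outermost annotated starts of these genes thus lie close together, and *Gbp9* and *Gbp4* rose. *Gbp8* (ENSMUSG00000034438) stood at 20.4, 20.6, 20.8 and 20.2 FPKM in Ctrl and at 13.9, 12.9, 14.6 and 13.5 FPKM in DADA. Every DADA library was below every Ctrl library, and the mean went from 20.5 ± 0.281 to 13.7 ± 0.70 FPKM, with a log2 fold change of -0.55 (SE 0.0377, 95% interval -0.63 to -0.46, limma adjusted p = 7.01e-07). *Gbp11* (ENSMUSG00000092021), which the annotation lists as a polymorphic pseudogene, stood at 3.89, 3.92, 4.18 and 3.58 FPKM in Ctrl and at 1.68, 1.49, 1.8 and 1.76 FPKM in DADA. The groups were again apart, and the mean went from 3.89 ± 0.246 to 1.68 ± 0.138 FPKM, a ratio of 0.432, with a log2 fold change of -0.87 (SE 0.0601, 95% interval -1.0 to -0.73, limma adjusted p = 7.15e-07). At the estimated depth the *Gbp11* values rest on about 70.7 to 173 fragments per library, the lowest of the 10 members. None of the 150-base windows of *Gbp8* and 0.0787% of those of *Gbp11* occur in another gene, although annotated exons of *Gbp8* overlap those of *Gbp9* by 60 bases and those of *Gbp4* by 61 bases.

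**Figure D2:**
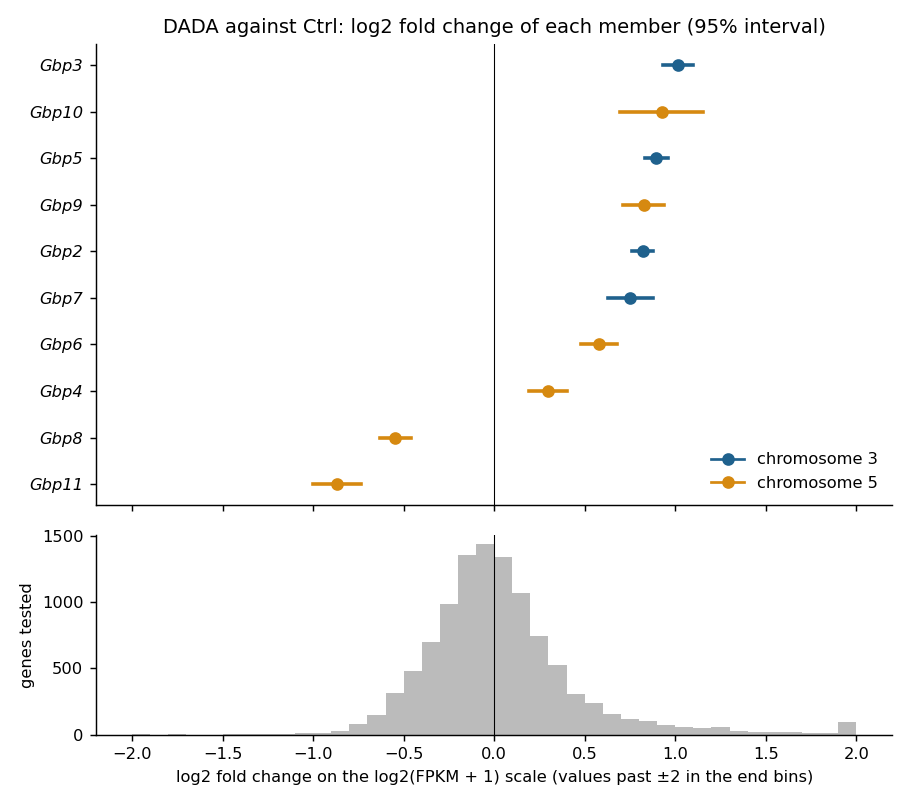
Log2 fold change of DADA against Ctrl for the 10 members on the log2(FPKM + 1) scale, with bars for the 95% interval. The intervals run from 0.93 to 1.10 for *Gbp3* down to -1.0 to -0.73 for *Gbp11*, and none includes 0.

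The changes differed in size between members. Of the 45 pairs of members, 31 had 95% intervals that did not overlap, and the intervals of *Gbp4*, *Gbp8* and *Gbp11* were apart from those of all other members. This is a description of the intervals, since pairs of members were not tested against each other. The scale shrinks the changes of low genes such as *Gbp10* and *Gbp11*, so part of a difference can come from the level. Pairs with *Gbp6* or *Gbp10* also rest on values that are uncertain because of shared sequence.

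The order of the levels was kept at the top and changed in the middle. In Ctrl the order by mean FPKM was *Gbp2*, *Gbp5*, *Gbp6*, *Gbp4*, *Gbp8*, *Gbp3*, *Gbp7*, *Gbp9*, *Gbp10* and *Gbp11*, where the ranges of *Gbp4* and *Gbp8*, of *Gbp3* and *Gbp7*, and of *Gbp10* and *Gbp11* overlapped. With DADA *Gbp8* moved from place 5 to place 8, below *Gbp3*, *Gbp7* and *Gbp9*, and the ranges of *Gbp4* and *Gbp3* were then the one pair of neighbours that overlapped.

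The 10 members together summed to 196 to 207 FPKM in Ctrl and to 308 to 327 FPKM in DADA, a ratio of means of 1.59. Within this sum *Gbp8* took 10.2% ± 0.145 in Ctrl and 4.30% ± 0.178 in DADA (SD, n = 4), and *Gbp11* took 1.94% ± 0.0981 and 0.526% ± 0.0322. *Gbp4* also took a smaller part, 11.3% ± 0.613 and then 8.78% ± 0.360, although its own level rose, because it rose by less than the sum. The 4 chromosome 3 genes made up 56.8 to 57.3% of the sum in the Ctrl libraries and 65.6 to 67.0% in the DADA libraries, and *Gbp2* and *Gbp5* together 44.4 to 45.3% and 50.3 to 52.5%. The part of *Gbp6*, 12.8 to 13.6% in Ctrl and 11.9 to 13.1% in DADA, and that of *Gbp7*, 5.37 to 6.36% and 6.15 to 6.63%, overlapped between the groups.

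**Figure D3:**
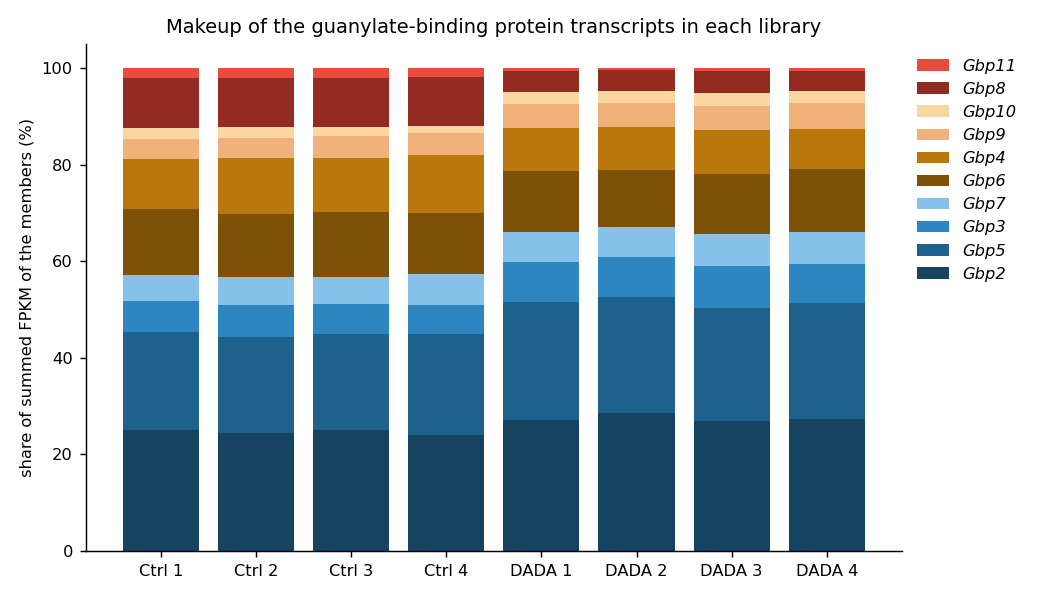
Percent of the summed FPKM of the 10 members taken by each member, stacked for each of the 4 Ctrl and 4 DADA libraries. *Gbp8* takes 10.1 to 10.4% in Ctrl and 4.14 to 4.53% in DADA, and the 4 chromosome 3 genes take at least 65.6% in every DADA library.

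Genes next to the clusters were looked at to see whether the change ran past the family. On chromosome 3 none of the 4 neighbours tested was called, namely *Pdlim5*, *Kyat3*, *Gtf2b* and *Pkn2*, with log2 fold changes from -0.12 to 0.21, and *Unc5c* and *Bmpr1b* were listed at 0 in every library. *Kyat3* and *Gtf2b* were near the threshold and were called when some single libraries were left out, *Gtf2b* also with the replicate number as a block (adjusted p = 0.00686). *Kyat3* had a limma adjusted p of 0.109 with all libraries, of 0.0453 without Ctrl 3 and of 0.038 without DADA 4, and *Gtf2b* one of 0.0650 with all, of 0.0361 without Ctrl 3 and of 0.0134 without DADA 4. On chromosome 5 all 5 neighbours tested were called, 4 lower and 1 higher. *Abcg3*, an ABC transporter gene beside *Gbp8*, went from 2.08 ± 0.159 to 1.21 ± 0.214 FPKM (log2 fold change -0.48, limma adjusted p = 0.000389). *Lrrc8b*, a volume-regulated anion channel subunit beside *Gbp11*, went from 7.04 ± 0.328 to 5.45 ± 0.199 FPKM (log2 fold change -0.32, limma adjusted p = 0.000134). The lowered GBP genes, whose annotated spans reach the edges of this cluster, were therefore each next to a gene that was also lower. In this comparison 35.3% of all genes tested were called lower. On the minus strand the end of *Gbp8*, not its start, lies beside *Abcg3*. Farther out, *Lrrc8c* was higher (log2 fold change 0.21) and *Lrrc8d* lower (-0.17). *Zfp951* was lower (-0.21, limma adjusted p = 0.0347), a call that was lost without any one of Ctrl 1, Ctrl 2, Ctrl 3 and DADA 3 (adjusted p = 0.0928, 0.0629, 0.0669 and 0.0855), with no filter (0.0520) and with the replicate block (0.0520), and *BC005561* has no row.

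**Figure D4:**
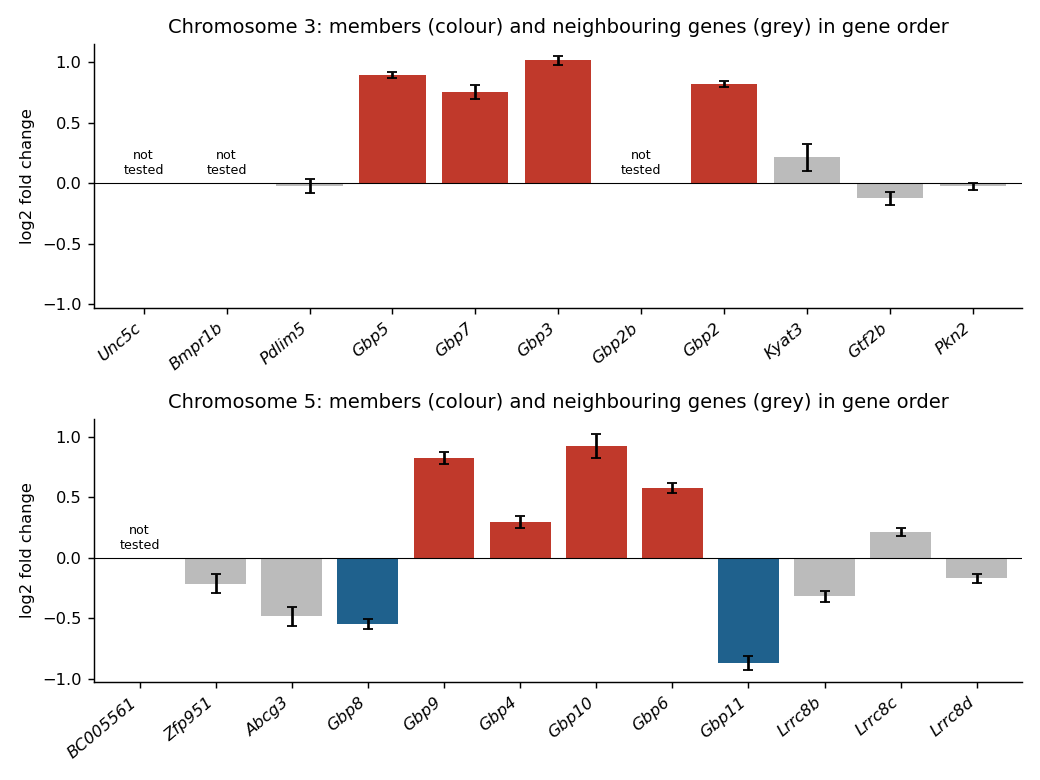
Log2 fold change of DADA against Ctrl, with bars for the SE, for members (red higher, blue lower) and neighbouring genes (grey) in chromosomal order. On chromosome 3 the 4 tested members stand at 0.75 to 1.01 between neighbours at -0.12 to 0.21, and on chromosome 5 *Gbp8* and *Gbp11* fall beside *Abcg3* (-0.48) and *Lrrc8b* (-0.32).

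Most genes listed for the pathway that leads from interferon to the GBP promoters were higher with DADA. Of the 20 genes, all tested, 15 were higher and 3 lower, beside 30.9% and 35.3% of all genes tested. The median log2 fold change of the 20 was 0.32 beside -0.02 for all genes tested. The list pools genes that pass the signal on with brakes on it such as *Usp18*, so the count does not give the direction of signaling. *Ifng*, the gene of interferon-γ, went from 404 ± 20.1 to 649 ± 8.54 FPKM (log2 fold change 0.68) and its receptor chain gene *Ifngr1* from 71.3 ± 1.51 to 89.0 ± 0.716 FPKM (0.32). *Stat2* went from 11.9 ± 0.162 to 32.4 ± 0.576 FPKM (1.38) and *Irf9*, its partner in the complex that binds ISREs, from 12.0 ± 0.742 to 29.8 ± 0.883 FPKM (1.25). These 4 genes were chosen from the list after their values were seen, and all were called (limma, adjusted p under 0.05).

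The largest changes of this list in each direction follow, with *Jak1* added after its values were seen to complete the 3 lower genes. *Usp18*, a brake on type I interferon receptor signaling, went from 0.637 ± 0.198 to 30.5 ± 0.883 FPKM (log2 fold change 4.27) and passed the filter through the DADA libraries alone, so it had to differ. *Irf7*, a transcription factor that amplifies type I interferon, went from 1.15 ± 0.0913 to 29.5 ± 0.433 FPKM (3.83). *Ifnar1*, a chain of the type I interferon receptor, fell from 41.4 ± 0.607 to 31.9 ± 0.993 FPKM (-0.37), and the kinase gene *Jak1* from 64.5 ± 0.996 to 57.6 ± 2.72 FPKM (-0.16). *Irf1*, a known activator of GBP genes, also fell, from 32.9 ± 0.943 to 29.0 ± 0.403 FPKM (-0.18, limma adjusted p = 0.000296). The part of *Irf1* in the GBP changes was not tested.

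The immunity-related GTPases, some of which act on the same vacuoles as the GBPs, had 7 of 9 listed genes in the table. All 7 were higher, beside 30.9% of all genes tested, with a median log2 fold change of 0.69. Sequence shared among these genes was not examined, so the 7 rows may not be separate measurements. *Irgm1*, a regulator of this family, went from 15.6 ± 0.995 to 42.0 ± 1.08 FPKM (1.37) and *Iigp1*, one of its effectors, from 5.25 ± 0.409 to 11.6 ± 0.337 FPKM (1.02). *Gm12250* and *Irgc1* have no row.

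Genes for the machinery that GBPs use had medians nearer to 0. The ATG8 conjugation system, the autophagy enzymes that GBPs need to reach vacuoles, had 5 of 12 genes higher and 2 lower, with a median of 0.10. With 7 of 12 called, where 66.2% of all genes tested were called, this list did not hold more calls than the background. *Map1lc3b* (0.49) and *Gabarap* (0.45), which encode ATG8 proteins, were higher, and the conjugation enzyme genes *Atg10* (-0.24) and *Atg3* (-0.20) were lower. Of 6 genes for CaaX prenylation and processing none was called higher and 1 lower, with a median of 0.03. The gene was *Fnta*, the shared subunit of the prenyltransferases, at 21.3 FPKM in Ctrl, which changed by -0.09 on the log2 scale (limma adjusted p = 0.0260), and its call was lost without any one of Ctrl 1, Ctrl 2, Ctrl 3, DADA 3 and DADA 4 (adjusted p = 0.0581, 0.0586, 0.0686, 0.0672 and 0.0584), as well as with equal totals (0.115), median-ratio scaling (0.0701) and quantile normalization (0.0561).

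Of 12 inflammasome and pyroptosis genes 7 were tested, of which 2 were higher and 3 lower, close to the 66.2% of all genes tested that were called. *Casp1*, the inflammasome protease, went from 6.83 ± 0.696 to 3.23 ± 0.255 FPKM (log2 fold change -0.89) and *Gsdmd*, the pore-forming substrate of such caspases, from 17.1 ± 1.40 to 14.3 ± 0.454 FPKM (-0.24). *Il18* was higher (0.59), but it was under 1 FPKM in every Ctrl library and passed the filter through the DADA libraries alone, and the DNA sensor gene *Aim2* was higher by 0.14 (limma adjusted p = 0.0277), a call that was lost without any one of Ctrl 1, Ctrl 3 and DADA 3 (adjusted p = 0.0685, 0.0708 and 0.0637) and with the replicate block (0.0545). The third lower gene, named after its values were seen, was the adaptor gene *Pycard* (-0.16, limma adjusted p = 0.0325). The number of genes called higher in this list ranged from 1 to 3 when single libraries were left out, with 1 without Ctrl 3 or without DADA 3, and the number called lower was 2 without any one of Ctrl 1, Ctrl 3, Ctrl 4 and DADA 3, and also with no filter, equal totals or median-ratio scaling, where *Pycard* was no longer called.

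Other large GTPases changed in both directions. Of 13 listed, 11 were tested, 4 were higher and 6 lower, with a median of -0.09, in a comparison where 30.9% and 35.3% of all genes tested were called higher and lower. Of the 4 higher genes 2, *Mx2* and *Dnm1*, were under 1 FPKM in every Ctrl library and passed the filter through the DADA libraries alone, so they had to differ. The interferon-induced antiviral GTPase genes *Mx2* (0.218 ± 0.0361 to 9.68 ± 0.580 FPKM, log2 fold change 3.13) and *Mx1* (1.23 ± 0.233 to 17.9 ± 1.85 FPKM, 3.08) were higher, and so were *Gvin1* (22.9 ± 0.357 to 38.0 ± 1.32 FPKM, 0.71), also interferon-inducible, and *Dnm1* (0.308 ± 0.111 to 1.42 ± 0.215 FPKM, 0.88), a dynamin of endocytosis, both named after their values were seen. *Atl2* (-0.23) and *Atl3* (-0.22), atlastins that fuse membranes of the endoplasmic reticulum and are close in structure to GBPs, were lower.

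**Figure D5:**
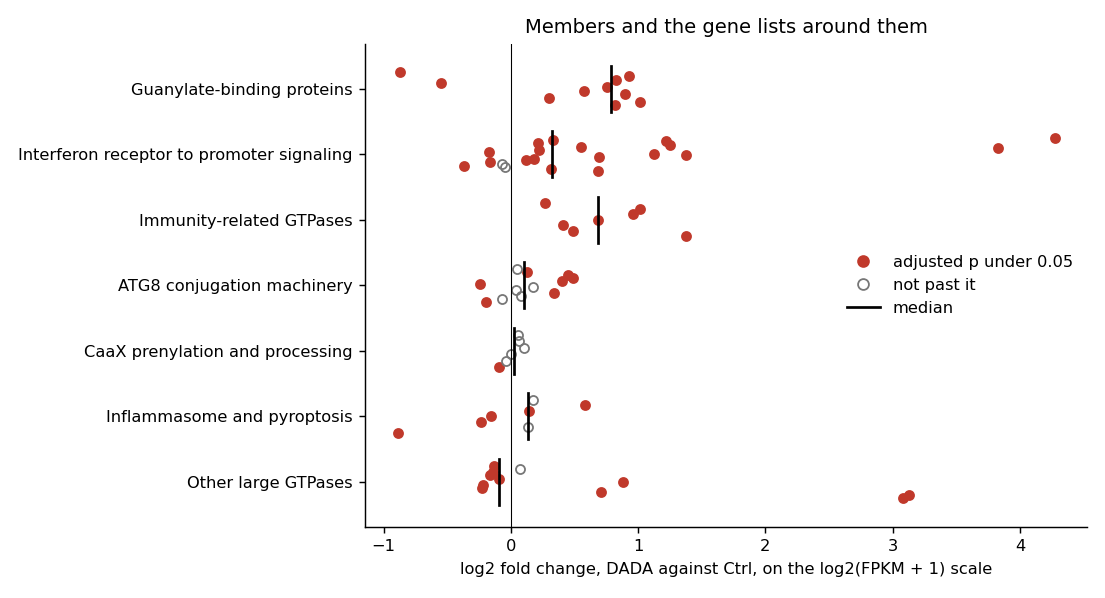
Log2 fold change of DADA against Ctrl for each tested gene of the GBP family and of 6 related gene lists, filled where limma's adjusted p was under 0.05, with a line at each list's median. The GBP family has 8 points above and 2 below 0, all 7 immunity-related GTPases lie above 0, and the CaaX list lies around 0 with a median of 0.03.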

How the data were processed

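Bulk RNA-seq of 8 libraries of mouse CD8+ T cells was used, 4 Ctrl and 4 DADA, grouped by their titles. The authors deposited FPKM values, 1 per row and library, for 22520 rows, of which 22105 carry a mouse gene identifier, and replicates were not pooled. The submitters' processing notes list CASAVA 1.8.2, FastQC 0.11.9, HISAT2 2.0.5, StringTie 1.3.3, Picard 1.41 and SAMtools 0.1.18 with the builds GRCm39 and GRCh38, and do not give their roles. The labels and the study's methods name different library kits, so whether counting used strand is not known.

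Values were analysed as log2(FPKM + 1) with limma 3.58.1 in R 4.3.3 (lmFit, eBayes with a trend) over the 10666 rows with at least 1 FPKM in at least 4 of 8 libraries, with Benjamini-Hochberg adjustment over them. Rows with an adjusted p-value under 0.05 were called. The exact permutation test of single members was two-sided, over 70 assignments of libraries to groups. The members, gene lists and tests were chosen with earlier results of these data known. Named genes are all members, other Gbp rows, the 2 largest called changes per direction of each list, 3 protein-coding genes on either side of each cluster, and the 5 genes whose pattern over the libraries was most like that of the members. Genes outside this rule are marked, and some items are not reported here.

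Depth was estimated from the steps between low values of 4431 single-transcript genes. Of these values, 37.1 to 46.7% lay within 0.1 fragments of a whole number, so no count test was run. Chance gives 20% for a depth set in advance. Here the depth was fitted to the same values, which can itself raise the share. FPKM sums per library were 450473 to 456939 in Ctrl and 438299 to 449480 in DADA. Shared sequence was counted as windows of 150 bases on the same strand of GENCODE M21 transcripts. The fit was tested on simulated data. Alternatives were a pseudocount of 0.1, no filter, a mean of at least 5 FPKM, equal library totals (TPM), quantile normalization, median-ratio scaling, eBayes with no trend, a block for the replicate number, each of the 8 libraries left out, and *Gbp6*, *Gbp10* and *Gm43302* summed, the last chosen after the data were seen. Python 3.11.15, numpy 2.4.6, scipy 1.17.1, pandas 2.3.3 and matplotlib 3.10.9 were used.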

Additional observations from a re-analysis of the deposited data

Results flagged for a closer look

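In 10 of the 108 groups of 4 libraries examined, 1 library stood apart from the other 3 by more than Dixon's 95% limit for the gap over the range, where chance gives about 5.4. Among the members this held for *Gbp9*, whose DADA 4 library stood at 17.6 FPKM above 15.7 to 15.9 FPKM (0.873), and for the *Gbp2* part of the family sum, which was 28.6% in DADA 2 and 26.98 to 27.3% in the other DADA libraries (0.831). The low *Gbp10* value in Ctrl 4 fell just short of the limit (0.819), while the high value of *Gm43302* in the same library passed it (0.847). These genes share sequence, and the part of read assignment in the pair was not tested.

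Among the other named genes, *Irgm1* was low in Ctrl 1 at 14.1 FPKM (0.881), *Zfp951* low in DADA 3 at 1.34 FPKM (0.868), *Ddx17* high in Ctrl 3 at 126 FPKM (0.861), *Usp18* high in DADA 2 at 31.8 FPKM (0.861), *Atg10* low in DADA 1 at 2.61 FPKM (0.851), *Aim2* high in DADA 3 at 14.7 FPKM (0.842) and *Soat2* low in DADA 2 at 36.8 FPKM (0.831).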

How the results depend on the processing

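Under the 16 alternatives fixed with the design, and for members that it kept apart also under the summed feature added later, every member tested kept its direction and its side of the threshold, with log2 fold changes between 0.26 and 0.33 for *Gbp4*, 0.99 and 1.07 for *Gbp3*, -0.58 and -0.52 for *Gbp8* and -1.17 and -0.83 for *Gbp11*, and a highest adjusted p of 0.00144 (*Gbp4*). With a mean of at least 5 FPKM *Gbp11* was not tested, which left 1 member lower, 1 gene lower in the ATG8 list, 1 higher in the inflammasome list and 2 higher among the other large GTPases. In the CaaX list 2 genes were higher with equal totals (TPM) and 1 with median-ratio scaling, and 0 were lower under either or under quantile normalization. With single libraries left out, 0 to 1 genes were lower in the CaaX list and 1 to 3 higher in the inflammasome list, and 6700 to 6848 genes were called in all, beside 7064. The balance of all calls, 3296 higher and 3768 lower, turned to 3604 and 3380 with equal totals and to 4007 and 3861 with no filter, and was 3005 and 4116 with quantile normalization. Same-numbered libraries did not deviate together over all genes tested (correlations from -0.12 to 0.0953). With so few libraries per group this cannot settle whether the numbers pair the samples. With the replicate number as a block 6995 genes were called, the members still gave 8 higher and 2 lower, and 1 inflammasome gene was higher. The uncalled neighbours *Pdlim5* and *Pkn2* crossed 0, the first with equal totals (0.0033), without Ctrl 4 (0.024) and without DADA 1 (0.0027), in a range of -0.056 to 0.024 over the libraries left out, and the second with equal totals (0.0040). Of 570 values of 34 named genes that are no members, 543 kept direction and side. The cause of these shifts was not tested beyond the smaller number of genes under the stricter filter. No scaling moved the median of all genes beyond -0.05. Depth is an estimate here, and FPKM carries no counting error.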

Other observations

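The genes whose pattern over the 8 libraries was most like the mean of the 10 members, each member scaled to the same spread, were *Ddx17*, an RNA helicase gene (Pearson r = 0.998), *Net1*, a RhoA exchange factor gene (0.997), *Soat2*, a cholesterol esterification enzyme gene (0.996), an assembled transcript without a gene name (0.996) and *Acadvl*, which encodes the first enzyme of very long-chain fatty acid oxidation (0.996). The libraries fall into their 2 groups, so r mostly reflects the step between Ctrl and DADA, and 474 of 10656 genes had r above 0.98. No p is given. *Ddx17* went from 123 ± 2.14 to 160 ± 3.84 FPKM (SD, n = 4), *Soat2* from 31.1 ± 0.254 to 38.0 ± 0.817 FPKM and *Acadvl* from 33.4 ± 1.3 to 45.4 ± 2.42 FPKM.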
